A study of Mus musculus with 12 samples.

Results

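Col7a1, Col8a1, Col12a1 and Col20a1 encode chains of an anchoring collagen, a short-chain collagen and a pair of fibril-associated collagens. They were chosen by name, with earlier results of these data known, as 4 of the 420 genes listed by a targeted RNA panel for mouse extracellular matrix (ECM) and cell adhesion, and they were compared over 4 groups of cultured pancreatic stellate cells (PSCs). All 4 were among the 238 genes tested, and they are 4 of the 43 collagen genes of the panel. The cells carried Rosa26CreERT2, a tamoxifen-activated Cre recombinase under a broadly active promoter, with floxed PKN2 alleles on a C57BL/6 background, and were immortalised with SV40 large T. The groups were PKN2 wild type (WT) given vehicle, PKN2 knockout (KO) given vehicle, WT given 5 ng/ml TGF-β1, and KO given 5 ng/ml TGF-β1, with RNA taken after 72 h and 3 libraries per group, lettered A, B and C. By the methods, PKN2 was deleted by a short treatment of these cells with 4-hydroxytamoxifen, which activates the Cre. What WT cells were given in its place is not stated, so PKN2 loss and this treatment cannot be told apart. By the methods the PSCs came from the pancreas of 1 male mouse, whereas the series describes 3 lines per genotype. Nothing shows that the libraries of a group came from separate animals, so p-values measure the spread between these libraries, which may be technical. The panel lists no row for Pkn2, and the knockout was therefore not checked at its own transcript.

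PSCs are the pancreas's resident fibroblast-like cells, which lay down matrix when activated, and TGF-β1 is a strong activator of them. Collagen VII, a homotrimer of the Col7a1 chain, forms the anchoring fibrils that tie an epithelial basement membrane to the stroma beneath it. Collagen VIII, partly built from the Col8a1 chain, is a short-chain collagen that forms networks, best known from vessel walls and the membrane under the corneal endothelium. Collagen XII, a homotrimer of the Col12a1 chain, is a FACIT (fibril-associated collagen with interrupted triple helices) that sits on the surface of collagen I fibrils, and collagen XX, from Col20a1, is related to it.

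In GRCm38, with the GENCODE vM21 annotation, Col7a1 (ENSMUSG00000025650) lies at chr9:108953586-108984875 on the plus strand, and its longest coding transcript has 119 exons. Col12a1 (ENSMUSG00000032332) lies on the same chromosome at chr9:79598991-79718831 on the minus strand, with 66 exons. Col8a1 (ENSMUSG00000068196) lies at chr16:57624258-57754737 on the minus strand, with 4 exons, and Col20a1 (ENSMUSG00000016356) at chr2:180986535-181018363 on the plus strand, with 36 exons. RefSeq promoters (GRCm38.p6) were matched for 3 of the 4. The 250 bases before the start of Col7a1, whose level moved most with TGF-β1, and of Col8a1, whose level moved little, are shown 5′ to 3′ on the gene's own strand, as a contrast, with matches in capitals to CAGAC or its reverse complement GTCTG, a core motif of the SMAD factors that act below TGF-β1.
Col7a1, chr9:108953336-108953585, plus strand: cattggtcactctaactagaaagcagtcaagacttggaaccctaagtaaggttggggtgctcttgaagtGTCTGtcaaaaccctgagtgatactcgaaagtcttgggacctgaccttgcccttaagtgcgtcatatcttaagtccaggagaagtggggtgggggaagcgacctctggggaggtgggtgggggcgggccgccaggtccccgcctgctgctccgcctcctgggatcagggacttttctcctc
Col8a1, chr16:57754738-57754987, minus strand: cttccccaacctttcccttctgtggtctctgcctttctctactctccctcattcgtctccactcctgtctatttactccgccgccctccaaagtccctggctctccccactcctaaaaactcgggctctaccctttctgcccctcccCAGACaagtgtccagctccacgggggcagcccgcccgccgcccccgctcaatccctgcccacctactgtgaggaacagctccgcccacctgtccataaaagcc
Each window held 1 match, at -181 to -177 from the start in Col7a1 and at -103 to -99 in Col8a1. The motif is short, and 42.2% of 32851 RefSeq promoters of this length held it on either strand, as did 43.5% of the 177 promoters matched to panel genes. The window of Col20a1 also held 1 match, at -126 to -122, and 1 match to GGAATG, a motif of the TEAD factors, at -98 to -93, which was in 12.6% of all promoters. No window held TGANTCA, the AP-1 motif, which was in 6.75% of all promoters. These matches are descriptions of letters and not of binding.

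Between 1074095 and 1473153 reads per library fell on the panel, and 77 listed genes had no read in any library. Values below are normalized counts, the reads of a library divided by 1 factor from reference genes, and levels are compared between groups and not between genes. Where another scaling is named, RPM are a gene's reads per 1000000 panel reads of its library. Counting intervals and floors cover counting error only. The 8 stellate cell and fibroblast markers summed to between 239003 and 526149 normalized counts in every library, so the label was matched by their sum. Col1a1 alone had a mean of 149555 of the summed mean of 311661 in WT vehicle. Not every marker was high: 7 of the 8 passed the filter for testing. Dcn, 1 of the 8, had a mean of 21.5 in WT vehicle and 1 read per WT library given TGF-β1. The 8 epithelial markers summed to between 2.36 and 50.9 and the 9 endothelial markers to between 10.6 and 39.5, with Sele and Mmrn1 without a read. The 9 leukocyte markers summed to between 45.05 and 376, and their means were 257 in WT vehicle and 302 in KO vehicle against 53.8 and 70.3 after TGF-β1. The 5 Schwann and neural markers summed to between 715 and 1997, with Mag, Ncan and Cdh19 without a read, and their means were 823 in WT and 1513 in KO in vehicle, against 1303 and 1774 after TGF-β1. The epithelial means were 30.3 and 30.0 in WT and KO vehicle and 10.3 and 17.2 after TGF-β1, and the endothelial means 15.7 and 19.4, and 37.4 and 20.9. The part of these markers in the results was not tested. In bulk samples, fewer cells of a type and less RNA per cell cannot be told apart.

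The values of the 4 genes over the 4 groups, which the choice of genes used, are given as a description with no test. Fitted differences are on the log2(normalized count + 1) scale with the standard error (SE) of limma. The median difference over the 238 genes was 0.21 for KO against WT in vehicle, 0.13 for KO against WT after TGF-β1, 0.00 for TGF-β1 against vehicle in WT and -0.14 for the same in KO. These medians depend on the scaling: in vehicle, KO against WT had a median of 0.03 with TMM scaling and -0.02 with median-of-ratios scaling, and TGF-β1 against vehicle had -0.25 in WT and -0.34 in KO with total count scaling.

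Col7a1 was low in vehicle and higher after TGF-β1 in both genotypes. In WT vehicle the 3 libraries had 7.08, 11.5 and 4.93 normalized counts (7.83 ± 3.34, SD, n = 3). In KO vehicle they had 5.86, 10.6 and 10.6 (9.02 ± 2.74, SD, n = 3), all within the WT range. These vehicle values rest on 5 to 17 reads per library. After TGF-β1 the WT libraries had 76.7, 122.5 and 125.9 (108 ± 27.5, SD, n = 3). The KO libraries had 47.9, 58.5 and 56.1 (54.2 ± 5.57, SD, n = 3). Every TGF-β1 library lay above every vehicle library, and every KO library given TGF-β1 lay below every WT library given it. The fitted difference of TGF-β1 from vehicle was 3.66 (SE 0.37) in WT, 12.7-fold on this scale, and 2.50 (SE 0.37) in KO, 5.65-fold. KO was lower than WT after TGF-β1 by a fitted -0.96 (SE 0.37), and differed by 0.21 (SE 0.37) in vehicle, a value whose sign turned in 1 of 21 alternatives. In RPM, the KO and WT groups given TGF-β1 overlapped, with means of 41.6 and 83.7. Of the 12 libraries, 9 reached the minimum of 10 normalized counts, 3 of them vehicle libraries.

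Col8a1 had similar normalized counts in the 4 groups. The WT vehicle libraries had 5014, 4232 and 4529 normalized counts (4592 ± 395, SD, n = 3). The KO vehicle libraries had 4590, 3380 and 4836 (4269 ± 779, SD, n = 3). In each of the 4 comparisons the groups of this short-chain collagen gene overlapped, while WT vehicle, at 4232 and above, lay just over KO with TGF-β1, at 4198 and below. After TGF-β1 the WT libraries had 4248, 3557 and 4928 (4244 ± 686, SD, n = 3). The KO libraries had 4198, 2800 and 3792 (3597 ± 719, SD, n = 3). The fitted differences ran from -0.25 to -0.12, each with an SE of 0.21. The means fell in the order WT vehicle, KO vehicle, WT with TGF-β1 and KO with TGF-β1, and neighbours in that order did not differ beyond their spread. In RPM, TGF-β1 libraries were lower than vehicle libraries without overlap in both genotypes, by a fitted -0.37 (SE 0.10) in WT and -0.45 (SE 0.10) in KO. The KO vehicle libraries were also lower than the WT vehicle libraries without overlap in RPM, with means of 3576 and 4058, while the groups given TGF-β1 overlapped.

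Col12a1, the FACIT of collagen I fibrils, had its highest mean in KO vehicle and its lowest in KO with TGF-β1. In WT the libraries had 2727, 1272 and 1833 normalized counts in vehicle (1944 ± 734, SD, n = 3). With TGF-β1 they had 3036, 1394 and 1996 (2142 ± 831, SD, n = 3). The WT groups overlapped over most of their range. In KO the libraries had 3215, 2367 and 3484 in vehicle (3022 ± 583, SD, n = 3). With TGF-β1 they had 2124, 1085 and 1763 (1657 ± 528, SD, n = 3). Within KO each TGF-β1 library lay below each vehicle library, with a fitted difference of -0.90 (SE 0.33), while in WT the difference was 0.14 (SE 0.33). In vehicle KO was higher than WT by a fitted 0.69 (SE 0.33), and after TGF-β1 lower, at -0.35 (SE 0.33), with overlap in both. In RPM, neither pair of KO and WT groups overlapped: the means were 2528 in KO and 1678 in WT in vehicle, and 1184 in KO and 1537 in WT after TGF-β1. The WT difference between TGF-β1 and vehicle was -0.11 under that scaling, so its sign depends on the scaling.

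Col20a1, the second FACIT, was higher in KO than in WT after TGF-β1. In WT vehicle the libraries had 13.0, 31.8 and 37.5 normalized counts (27.4 ± 12.8, SD, n = 3). In KO vehicle they had 29.3, 43.1 and 41.3 (37.9 ± 7.51, SD, n = 3). The vehicle groups overlapped, with library A of WT standing low. After TGF-β1 the WT libraries had 18.9, 29.2 and 16.3 (21.5 ± 6.84, SD, n = 3). The KO libraries had 35.6, 41.3 and 35.4 (37.4 ± 3.34, SD, n = 3), each above each WT library. The fitted difference of KO from WT was 0.81 (SE 0.39) after TGF-β1 and 0.56 (SE 0.39) in vehicle. In RPM, the groups given TGF-β1 overlapped, with means of 28.7 in KO and 16.8 in WT. TGF-β1 against vehicle differed by -0.25 (SE 0.39) in WT and by -0.00 (SE 0.39) in KO.

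**Figure D1:**
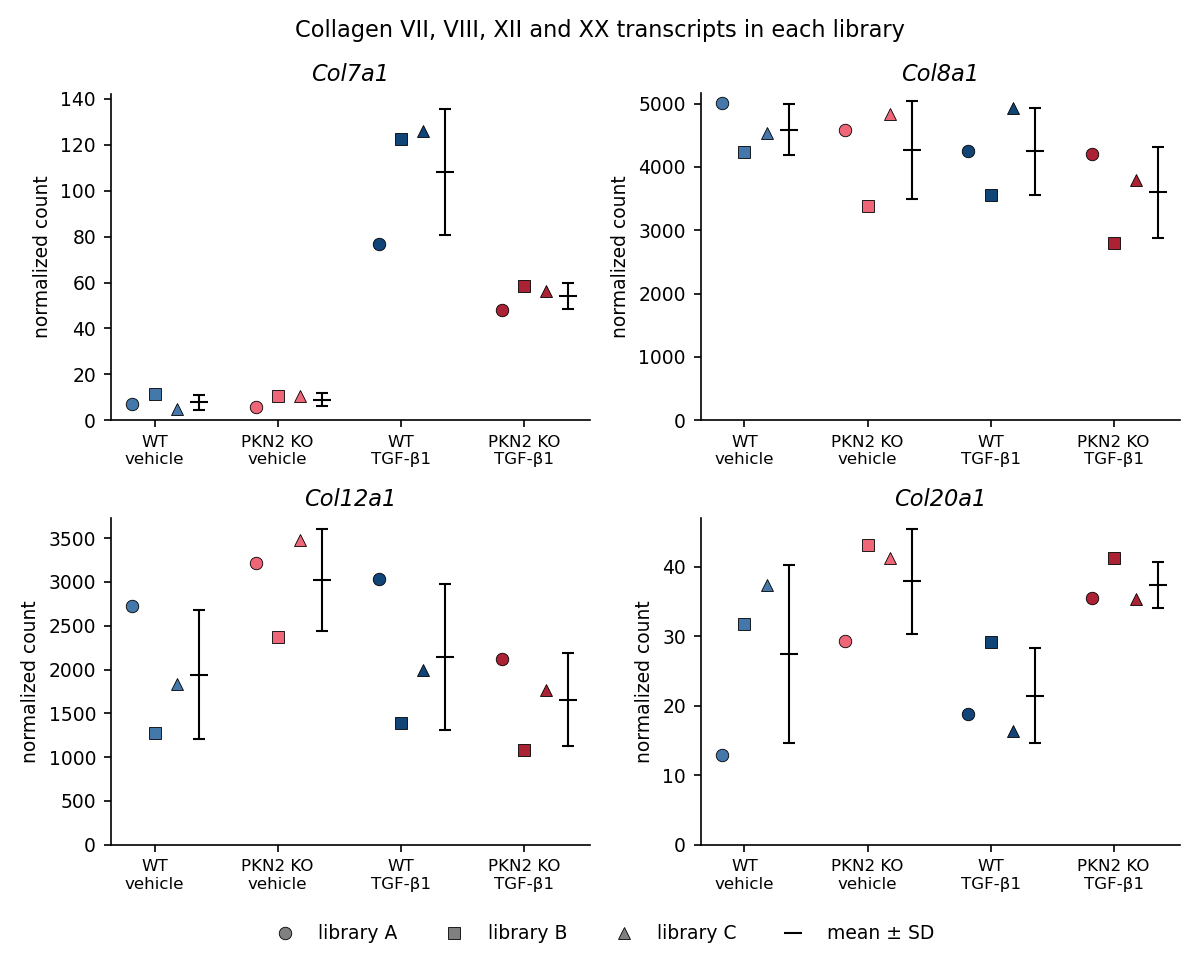
Normalized counts (vertical axis, starting at 0, with its own scale in each panel) of the 4 collagen genes in the 12 libraries, by group, with library letters as symbols and the mean ± SD of 3 libraries as a bar. Col7a1 stands between 47.9 and 125.9 in the TGF-β1 libraries and at most 11.5 in the vehicle libraries, and the other 3 genes move less.

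Because these contrasts were used in the choice of genes, the number of the 4 past an adjusted p of 0.05 in limma is set beside the share of all 238 genes past it, and nothing is read from it. For KO against WT, 0 of 4 passed in vehicle, where 13.9% of all genes did, and 0 of 4 passed after TGF-β1, where 15.1% did. At an unadjusted p under 0.05, 0 of 4 passed in vehicle, where 25.2% of all genes did, and 1 of 4 after TGF-β1 (Col7a1), where 28.6% did. For TGF-β1 against vehicle, 1 of 4 passed in WT (Col7a1), where 50.8% of all genes did, and 2 of 4 in KO (Col7a1 and Col12a1), where 48.7% did. The Col12a1 call was lost in 6 of the 12 fits that left out 1 library, those without library C of any group, library A of KO vehicle or library B of KO with TGF-β1, with differences from -0.97 to -0.62. For the interaction, the difference between the KO and WT responses to TGF-β1, 0 of 4 passed, where 3.36% of all genes did. At an unadjusted p under 0.05, 2 of 4 passed it (Col7a1 and Col12a1), where 9.66% of all genes did. The interaction was -1.17 (SE 0.52) for Col7a1, -1.04 (SE 0.47) for Col12a1, -0.13 (SE 0.30) for Col8a1 and 0.25 (SE 0.56) for Col20a1. Groups without overlap were counted likewise: 0 of 4 for KO against WT in vehicle (32.4% of all genes), 2 of 4 after TGF-β1 (28.2%), 1 of 4 for TGF-β1 in WT (55.9%) and 2 of 4 for TGF-β1 in KO (52.9%). The comparisons that share a group are not independent of each other.

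**Figure D2:**
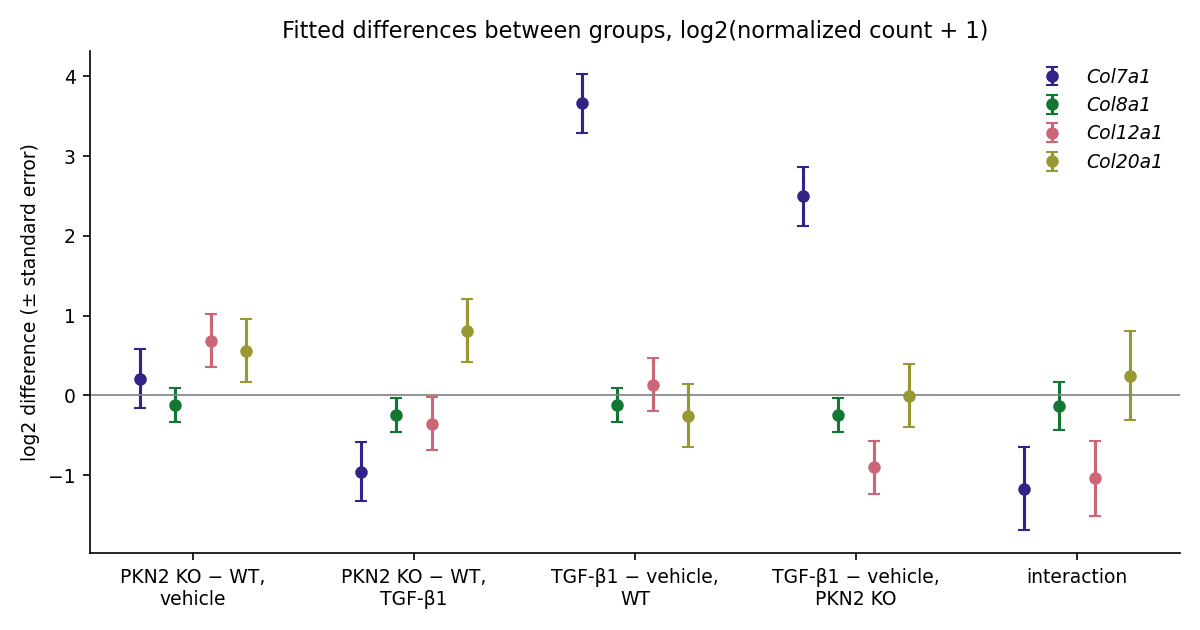
Fitted log2 differences (vertical axis, log2(normalized count + 1), with standard errors as bars) of the 4 genes in the 4 comparisons of groups and in the interaction. Col7a1 stands apart in both TGF-β1 comparisons, at 3.66 in WT and 2.50 in KO, and the other 3 genes lie between -0.90 and 0.81 there and in the KO comparisons.

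The library letters accounted for much of the spread of Col8a1 and Col12a1. Of the sum of squares over the 12 libraries, 55.4% lay between letters within groups for Col8a1 and 52.1% for Col12a1, against 2.19% for Col7a1, 26.3% for Col20a1 and 7.23% over all 238 genes. These are shares of the total, and 95.8% for Col7a1 and 88.2% over all genes lay between groups, against 31.0% for Col8a1 and 41.1% for Col12a1. The rest within groups was 13.5% for Col8a1, 6.82% for Col12a1, 2.06% for Col7a1, 27.9% for Col20a1 and 4.56% over all genes. Within groups, letters thus held more than the rest over all genes too, and not only for Col8a1 and Col12a1. Library B was the lowest of its group in all 4 groups for both Col8a1 and Col12a1, as it was for 35.7% of the 238 genes. In RPM this held for Col12a1 and not for Col8a1, and for 4.62% of the genes. Col12a1 went from vehicle to TGF-β1 by 0.15, 0.13 and 0.12 in libraries A, B and C of WT, and by -0.60, -1.12 and -0.98 in those of KO. In normalized counts the same-letter steps of WT were thus close to each other, although the libraries of a group ranged widely. This depends on the scaling. As RPM, Col12a1 in WT went from 2152 to 1900 in A and from 1606 to 1423 in C, but from 1278 to 1289 in B. In RPM the 3 KO vehicle libraries had 3587, 3583 and 3558 for Col8a1 and 2512, 2509 and 2563 for Col12a1, much closer than their normalized counts.

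**Figure D3:**
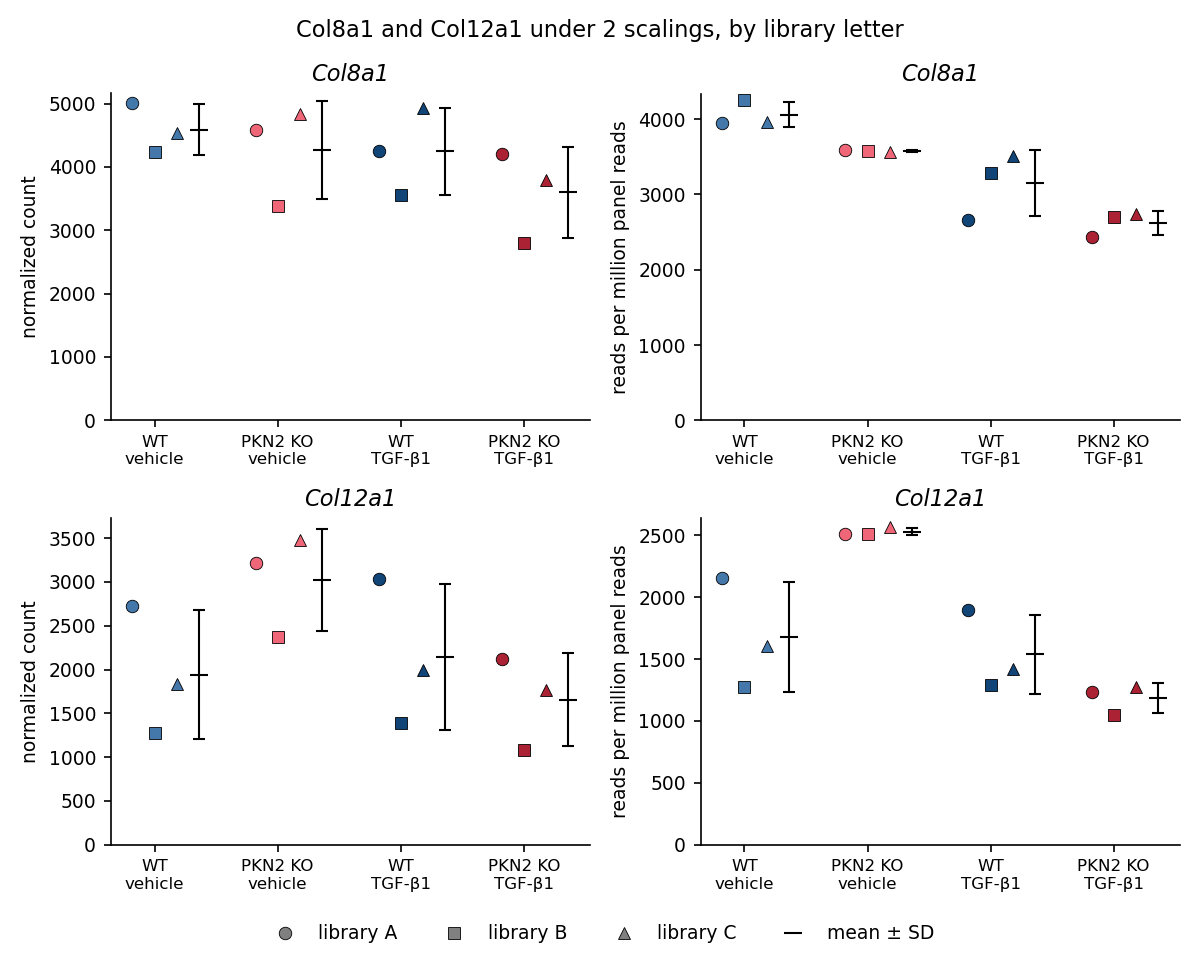
Col8a1 (top) and Col12a1 (bottom) by library, as normalized counts (left) and as RPM (right), with library letters as symbols and mean ± SD of 3 libraries as bars, on axes that start at 0. Library B is the lowest of every group at the left for both genes, and at the right for Col12a1.

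The genes most like each of the 4 over the 12 libraries were taken by Pearson's r of log2(normalized count + 1), a description across libraries that share group and scaling. For Col7a1 they were Col27a1 (r = 0.98), Flrt2 (0.96) and Col5a3 (0.95), and within groups, as deviations from the group means, the same 3 had 0.59, -0.10 and -0.11. For Col8a1 they were Pcdhga10 (0.92), Pcdhgc3 (0.90) and Timp3 (0.88), and for Col12a1 Itga8 (0.89), Pcdh19 (0.86) and Lamc1 (0.85). Within groups these 6 had an r from 0.84 to 0.95. For Col20a1 they were Flrt3 (0.77), Cdh24 (0.76) and Col9a3 (0.75), the last the chain of another FACIT. Among the 4 themselves Col8a1 and Col12a1 had the highest r, 0.64 over libraries and 0.77 within groups.

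Other panel genes of related collagens and of the proteins that work with these collagens were tested in the same fit, as 5 lists of 43 genes, of which 34 were tested. Of these, 6 (Col14a1, Lamb3, Dcn, Tnxb, Itga2 and Itga11) reached the minimum of 10 normalized counts only in vehicle libraries or only in TGF-β1 libraries. They passed the filter through the condition where they were high and so had to differ, and their TGF-β1 differences are given as values without a p. The list medians below include these 6 genes. In the list of short-chain and FACIT relatives, 4 of 9 were tested. Apart from Col14a1, the chain of FACIT collagen XIV and 1 of these 6 genes, no relative was past the threshold with TGF-β1. Col14a1 had 10.4 ± 8.03 normalized counts in WT vehicle and 21.1 ± 4.88 in KO vehicle (SD, n = 3). The WT libraries given TGF-β1 had 0 reads of it, and the KO libraries given TGF-β1 at most 1 read. The list's median log2 difference with TGF-β1 was -0.57 in WT and -0.50 in KO, against 0.00 and -0.14 over all 238 genes. This median is over 4 genes and includes Col14a1, which had to fall, so no shift of the list is read from it. Col10a1, Col9a3 and Col16a1 differed by -1.34, 0.20 and 0.22 in WT and by -0.69, -0.31 and -0.14 in KO. No relative passed for KO against WT in either condition or for the interaction by limma, and 0 had an unadjusted p under 0.05 in those 3 comparisons. Col9a1, Col9a2 and Col22a1 had no read in any library.

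Among the partners of the anchoring zone, 5 of 7 were tested. Col4a1 and Col4a2, the basement membrane collagen IV chains, rose in KO against WT. Col4a1 had 276 ± 45.1 in WT and 529 ± 84.5 in KO in vehicle (SD, n = 3), a log2 difference of 0.94 (limma adjusted p = 0.00382), and 266 ± 35.8 and 529 ± 73.6 after TGF-β1 (0.99, adjusted p = 0.00161). Col4a2 differed by 0.95 in vehicle (adjusted p = 0.0378) and 0.96 after TGF-β1 (adjusted p = 0.0318), calls that were lost in 6 and 4 of the 12 fits without 1 library. Those were, in vehicle, the fits without library B or C of WT vehicle, A or C of KO vehicle, or C of either TGF-β1 group (log2 differences 0.83 to 0.95), and after TGF-β1 those without library B or C of WT or A or C of KO given it (0.68 to 1.01). Lamb3, a chain of an epithelial laminin to which anchoring fibrils attach, went from 0 to 3 reads per vehicle library to 17.6 ± 5.88 normalized counts in WT and 29.8 ± 8.74 in KO with TGF-β1. Itga6, the laminin receptor chain of hemidesmosomes, fell by 1.13 on the log2 scale in WT and by 0.92 in KO (adjusted p = 0.000471 and 0.00282). The list's median log2 difference was 0.80 between KO and WT given vehicle and 0.74 between those given TGF-β1, and -0.05 and -0.03 for TGF-β1 in WT and KO.

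Among the 9 genes of fibrils and collagen XII partners, all tested, 3 rose with TGF-β1 in each genotype. The 2 that fell, Tnxb and Dcn, reached the minimum in vehicle libraries only and had to differ, so their falls are given as values. Tnc (tenascin-C, a collagen XII binding matrix protein) rose by 3.18 in WT and 3.27 in KO, from 1099 ± 212 and 913 ± 57.6 to 10079 ± 2591 and 8905 ± 1552 normalized counts (SD, n = 3, with limma adjusted p = 2.93e-08 and 2.52e-08). Col5a1 and Col5a2, chains of the fibril-nucleating collagen V, moved likewise in WT, where Col5a1 rose by 0.65 (adjusted p = 0.00832). Col5a2 rose by 0.92 in WT and 0.99 in KO (adjusted p = 0.00458 and 0.00313). Tnxb (tenascin-X) went from 115 ± 12.0 in WT vehicle and 173 ± 25.8 in KO vehicle to at most 3 reads per WT library and 3 to 5 reads per KO library. After TGF-β1 it was higher in KO than in WT (adjusted p = 0.016), a call on these few reads that was lost without library A or B of WT or library A of KO given TGF-β1. Dcn (decorin) went from 21.5 ± 13.8 and 35.3 ± 19.8 to 1 read per WT library and 2 to 4 reads per KO library. Fmod (fibromodulin, a small proteoglycan on collagen fibrils) was higher in KO than in WT, at 54.7 ± 25.2 against 13.5 ± 5.76 in vehicle and 251 ± 116 against 32.2 ± 16.02 after TGF-β1 (log2 differences 1.90 and 2.92, adjusted p = 0.0149 and 0.000589), and with TGF-β1 it rose in KO by 2.19 (adjusted p = 0.00139) and differed by 1.17 without overlap in WT (adjusted p = 0.0505), with an interaction that did not pass (adjusted p = 0.607). The vehicle call of Fmod was lost without library C of WT vehicle or library A or C of KO vehicle, with differences from 1.58 to 1.81. Col1a1, Col1a2 and Col3a1, the chains of the fibrils that collagen XII coats, did not pass in any of the 5 comparisons. The list's median log2 difference with TGF-β1 was 0.44 in WT and 0.18 in KO.

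Among the 5 collagen-binding integrins, all tested, Itgb1, the shared beta chain, rose with TGF-β1 by 1.19 in WT and 1.08 in KO (limma adjusted p = 0.00398 and 0.00852). Itga2, the alpha chain of a collagen I receptor, went from 3.61 ± 2.11 and 4.78 ± 2.32 to 43.3 ± 14.3 and 46.9 ± 5.25 normalized counts with TGF-β1 (SD, n = 3). Itga11, the alpha chain of the fibroblast collagen receptor, went from 105 ± 26.5 in WT vehicle and 153 ± 15.1 in KO vehicle to 7.87 ± 2.07 and to at most 3 reads per KO library. KO libraries given TGF-β1 were lower than WT ones (limma adjusted p = 0.00284), a call on few reads. The WT libraries given TGF-β1 had 7 to 9 reads of Itga11. Every TGF-β1 library of both genotypes lay below the minimum, and the gene was tested only through its vehicle libraries. The list's median log2 difference with TGF-β1 was -0.15 in WT and 0.22 in KO.

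Of the genes of collagen biosynthesis and processing, 11 of 13 were tested. With TGF-β1, 3 rose and 2 fell in WT, and 1 rose and 4 fell in KO. Plod2, a lysyl hydroxylase of collagen cross-linking, rose by 1.68 in WT and 1.83 in KO (limma adjusted p = 1.11e-05 and 5.42e-06), and in WT P3h1, a prolyl hydroxylase, rose by 0.72 and Lox, a lysyl oxidase, by 0.88 (adjusted p = 0.00814 and 0.0116). The Lox call was lost without library B of WT vehicle or library A of WT given TGF-β1, with differences of 0.68 and 0.72. Pcolce, an enhancer of procollagen processing, fell by 0.94 and 1.07 (limma adjusted p = 0.00743 and 0.0034), and Adamts2, a procollagen N-proteinase, by 0.83 and 0.75 (adjusted p = 0.00116 and 0.00282). Loxl2, of the same enzyme family as Lox, was lower in KO than in WT after TGF-β1, at 327 ± 114 against 842 ± 366 normalized counts (log2 difference -1.34, limma adjusted p = 0.0179). This Loxl2 call was lost without library A or C of WT or library B of KO given TGF-β1, with differences from -1.36 to -1.01. Adamts14, another procollagen N-proteinase, was lower in KO than in WT after TGF-β1, at 47.4 ± 3.86 against 151 ± 18.7 (log2 difference -1.64, adjusted p = 8.5e-05), and stood at 150 ± 5.32 in KO vehicle and 188 ± 29.8 in WT vehicle. The list's median log2 difference with TGF-β1 was 0.18 in WT and 0.16 in KO.

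**Figure D4:**
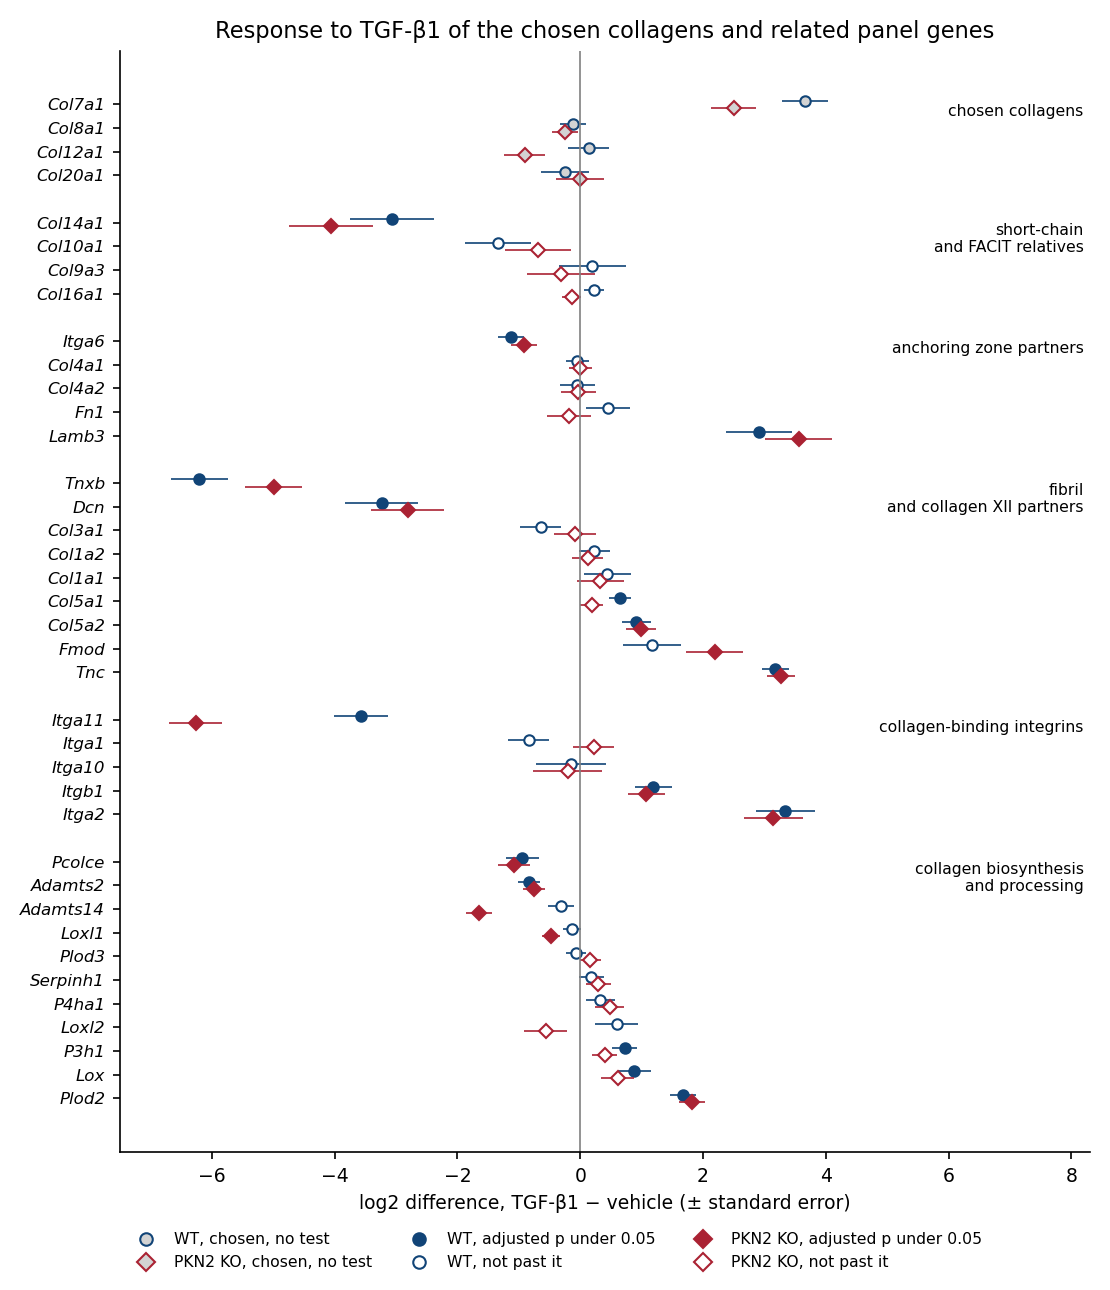
Fitted log2 differences of TGF-β1 against vehicle (horizontal axis, with standard errors as bars) in WT (circles) and KO (diamonds) for the 4 chosen collagen genes, shown in grey as a description with no test, and the 34 tested genes of the 5 related lists, filled where the adjusted p of limma was under 0.05. Tnxb, Itga11, Dcn and Col14a1 lie far to the left, and Tnc, Lamb3 and Itga2 to the right, in both genotypes. Of the genes drawn, 6 (Col14a1, Lamb3, Dcn, Tnxb, Itga2 and Itga11) reached the minimum in 1 condition only and so had to differ. Their filled symbols are not read as test results.

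Over the 34 related genes, 3 (8.82%) passed for KO against WT in vehicle, where 13.9% of all 238 genes did, and 7 (20.6%) after TGF-β1, where 15.1% did. The 7 include Itga11 and Tnxb, whose TGF-β1 libraries all lay below the minimum. With TGF-β1 16 (47.1%) passed in each genotype, against 50.8% of all genes in WT and 48.7% in KO, and 6 of the 16 were the genes at the minimum in 1 condition only. For the interaction 2 (5.88%) passed, Adamts14 and Itga11, against 3.36%. Itga11 was among those 6 genes, so its interaction is not read as a test result. No called difference of these lists changed sign under the other 3 scalings.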

How the data were processed

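Targeted RNA libraries of WT and KO PSCs given vehicle or TGF-β1 were re-analysed, 12 libraries in 4 groups of 3. The authors deposited counts of reads per gene and 2 tables of normalized counts, a signal that is never negative, for 420 genes. Per the labels, STAR, mm10 and DESeq2 1.32 were used upstream, and by the methods the normalized counts come from reference genes. Normalized values were whole multiples of 1 step per library for 100.0% of values (within 0.01 of a whole number), and equal to the raw counts in the 6 uniquely named raw columns. The other 6 raw columns carry 3 repeated names and were not used. Reads were taken as value over step, an inference for the other 6 libraries.

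limma 3.58.1 in R 4.3.3 (lmFit, contrasts, eBayes with trend and robust) was fitted to log2(normalized count + 1) over genes with at least 10 in at least 3 libraries, 238 genes, with 4 group means and Benjamini-Hochberg adjustment at 0.05. The members and lists were chosen with earlier results of these data known. Named genes were the 4 members, up to 3 genes per direction, list and comparison with the largest difference among those called without overlap, and the 3 most alike genes of each member. The fit was tested on simulated data. Alternatives were other scalings (TMM factors from edgeR 4.0.16, median-of-ratios factors from DESeq2 1.42.0, total count), pseudocounts of 0.5 and 5, other filters, no variance trend, a replicate block and each library left out.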

Additional observations from a re-analysis of the deposited data

Results flagged for a closer look

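Itga11 and Adamts14 are the related genes past the threshold in the interaction test of limma, which compares the response to TGF-β1 between the genotypes. The interaction was -2.69 on the log2 scale for Itga11 and -1.33 for Adamts14, with an adjusted p of 0.0257 for each. Nothing is read from the p of Itga11, because this gene had to fall with TGF-β1 in both genotypes. Itga11 was lower with TGF-β1 in both genotypes and more so in KO, where its TGF-β1 libraries had at most 3 reads, and it passed the filter on low values only through vehicle libraries, so the size of its value depends on the pseudocount, at -3.14 with a pseudocount of 0.5 and -1.60 with 5. Adamts14 fell by 1.64 in KO. The call of Adamts14 was lost in 9 and that of Itga11 in 8 of the 12 fits without 1 library, with adjusted p-values of at most 0.0879. For both these were the fits without library B or C of WT vehicle, any library of KO vehicle, library A or C of WT given TGF-β1 or library C of KO given it, and for Adamts14 also library B of the last group. Differences in those fits ran from -1.44 to -1.21 for Adamts14 and from -2.77 to -2.48 for Itga11.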

How the results depend on the processing

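The edgeR quasi-likelihood and DESeq2 Wald tests on recovered reads, planned as alternatives, are not reported, because deposited raw counts were matched for only 6 of the 12 libraries and the reads of the others are an inference from their steps. With total count scaling 1 of the 4 members was called for KO against WT in vehicle (Col12a1) and 2 for TGF-β1 in WT (Col7a1 and Col8a1), and related genes called were 5 for KO against WT in vehicle and 0 for the interaction. A pseudocount of 5 gave 1 member for KO against WT after TGF-β1 (Col7a1). With at least 10 in every library, where Col7a1 was not tested, members called were 0 for TGF-β1 in WT and 1 in KO, and related genes called were 4 for KO against WT after TGF-β1, 9 for TGF-β1 in KO and 1 for the interaction. With no variance trend 1 member was called for TGF-β1 in KO. The share of all genes called is not given for the alternative fits, here or below, so nothing is read from their member counts.

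Same-letter libraries of different groups had deviations with a mean r of 0.39 over 18 pairs, from -0.23 to 0.70. The r ran from 0.35 to 0.70 for letter A, from 0.60 to 0.68 for B and from -0.23 to 0.14 for C. No compared pair of groups had all 3 over 0.1, each time through letter C, so the main fit did not pair samples by letter. Letters A and B thus shared deviations across groups, which the main fit counts as spread. The own letter had the highest r in 26 of 36 pairs of a library with another group. For 7 of 12 libraries it did so in every other group. The SE of Col12a1 for KO against WT in vehicle was 0.33 in the main fit and 0.12 with the replicate block. With the replicate block, members called were 1 for KO against WT in vehicle (Col12a1), 3 after TGF-β1 (Col7a1, Col12a1 and Col20a1) and 1 for the interaction (Col12a1), and related genes called were 7, 14 and 6. That fit had infinite prior degrees of freedom for 197 genes. With the replicate block and no trend, members called were 1, 1 and 1 (Col12a1, Col7a1 and Col12a1) and related genes 5, 12 and 4.

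Leaving out each library in turn, members called ranged from 0 to 0 for KO against WT in vehicle, 0 to 0 after TGF-β1, 1 to 1 for TGF-β1 in WT, 1 to 2 in KO and 0 to 0 for the interaction. Related genes called ranged from 1 to 4, 5 to 7, 16 to 18, 15 to 19 and 0 to 2 in the same order. The lowest vehicle count, 1, came without library C of WT vehicle, library A of KO vehicle or library C of KO vehicle. Of the 20 member differences, 13 kept 1 sign under every alternative run. Of 43 named differences of related genes, 35 passed under every alternative run in which they were tested, and 0 changed sign. The causes were not tested. Col7a1 in vehicle rests on 5 to 17 reads per library, which limits any comparison there.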
